A study of Mus musculus with 4 samples.

Results

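The heat-shock chaperones described here are 10 genes of the 28006 features in the count tables: Hspa1a, Hspa1b, Hspa8, Dnajb1, Hsph1, Hsp90aa1, Hsp90ab1, Hspb1, Hspd1 and Hspe1. They were chosen by their lower levels in the reticular cells of ablated femurs in these same libraries, so their levels in reticular cells are given as a description, with no test. The question examined is whether the same difference occurred in the hematopoietic and endothelial cells that were captured beside them. The cells were tdTomato+ cells sorted from femurs of Cxcl12-iCreER; R26R(tdTomato/+) mice, in which a tamoxifen-dependent Cre recombinase driven by Cxcl12 regulatory sequence switches on a red fluorescent reporter. All mice, controls included, received tamoxifen 7 days before surgery, and femurs were taken 7 days after it. In ablated (ABL) femurs the marrow had been removed mechanically with endodontic files, and the untreated contralateral femurs served as controls (CONT). Each condition has 1 library in each of 2 biological replicates, made with Chromium v2 (replicate 1, pooled from several mice) and Chromium v3 chemistry (replicate 2), so that replicate and chemistry cannot be told apart.

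Chaperones are proteins that help other proteins to fold and that hold or refold those that have lost their shape. HSP70 proteins bind exposed hydrophobic stretches in a cycle of ATP hydrolysis, which HSP40 co-chaperones start and HSP110 proteins help to reset, and they hand many clients on to HSP90. Small heat-shock proteins hold unfolded proteins without ATP, and HSP60 with its lid HSP10 encloses proteins inside mitochondria. Several of these genes are switched on within minutes by heat, oxidative stress or enzymatic tissue dissociation through the transcription factor HSF1, which binds heat shock elements, inverted repeats of the unit nGAAn. Reticular cells are the CXCL12-rich stromal cells of the marrow that support hematopoietic cells.

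The promoters of the inducible members are shown because their letters hold the unit that HSF1 binds. RefSeq promoter windows (GRCm38.p6) were found for 7 of the 10 members, with none for Hsp90aa1, Hsp90ab1 or Hspa8. The 250 bases before each start site were searched for the letters GAANNTTC or TTCNNGAA, 2 units facing each other, where each motif is its own reverse complement, so both strands are covered. Of 32851 promoters of this length 12.8% held a match, as did 7 of the 10 windows of the member genes, in 6 of the 7 genes. Some of these windows share letters, as given below, so their matches are not independent. Either motif followed by NN and 1 more unit in turn (GAA or TTC), a form of 3 units that overlaps the shorter motifs, was in 0.466% of all promoters and in those of 2 members, Hspd1 and Hspe1. Dnajb1 held no match in either of its windows. The matches are given below, 5′ to 3′ on the strand of each gene, with the matched letters in capitals.
Hspa1a (chr17:34972233-34972280, minus strand): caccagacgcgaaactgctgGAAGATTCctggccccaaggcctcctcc
Hspa1b (chr17:34959315-34959362, minus strand): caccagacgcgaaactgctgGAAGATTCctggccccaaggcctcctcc
Hspb1 (chr5:135887782-135887849, plus strand): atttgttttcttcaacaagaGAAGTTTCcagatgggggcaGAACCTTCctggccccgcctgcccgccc
Hsph1 (chr5:149636351-149636380, minus strand): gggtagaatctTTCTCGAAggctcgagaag
Hspd1 (chr1:55088053-55088082, minus strand): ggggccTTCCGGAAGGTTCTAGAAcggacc
Hspe1 (chr1:55088053-55088082, plus strand): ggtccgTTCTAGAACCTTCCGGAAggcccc

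The Hspa1a and Hspa1b stretches are the same letter for letter, and the 2 promoters differ at 3 of 250 bases. Both are single-exon genes on chromosome 17, at 34969190 to 34972156 and at 34956436 to 34959238, coded on the minus strand. Their transcripts share 58.8% of the 50-base windows of Hspa1a, but none of the windows in its last 500 bases, where a 3′ library is read, so reads of the pair differ there. Hspd1 and Hspe1 are neighbours on chromosome 1, transcribed away from each other, and the stretches printed for them are the 2 strands of the same 30 bases. For Hspd1 and Hspe1 the annotation names 5 and 6 pseudogenes, whose reads may be split from theirs. The stretches of Hspa1a, Hspa1b and Hspb1 touch no exon of a member, while those of Hsph1, Hspd1 and Hspe1 overlap an exon of Hsph1 or Hspd1 in GENCODE M21.

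Called cells numbered 1459 to 3433 per library, from 22889380 to 44784072 UMIs (unique molecular identifiers, 1 per captured transcript), with a median of 5714 to 12895.5 UMIs per cell. At most 5 cell barcodes were shared between 2 libraries. Reticular cells, named from Cxcl12, Adipoq, Lepr, Kitl, Ebf3, Foxc1 and Il7, which were all detected in each library, numbered 1160 in CONT and 393 in ABL in replicate 1, and 1949 and 325 in replicate 2. Hematopoietic cells of named lineages numbered 1742 in CONT and 672 in ABL in replicate 1, and 277 and 466 in replicate 2. Although the sort was for tdTomato+ cells, no tdTomato UMI was found in 1286, 433, 209 and 195 of these, whereas 1136, 381, 1895 and 302 reticular cells held one. Cells with a UMI of Xist, which female cells transcribe, made up 47.1% of reticular cells in CONT and 78.6% in ABL in replicate 1, but 71.2% and 0.308% in replicate 2. The sexes of the mice thus differed between the libraries of replicate 2, although the control femur is described as that of the same animals. Values in cells of 1 sex are given for reticular cells and for all hematopoietic cells together. Single lineages, endothelial cells and other stromal classes were not split by sex, so its part in their results was not tested. Nothing in the labels ties libraries to single animals, so p-values measure the spread between these libraries.

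In reticular cells, the inducible HSP70 genes Hspa1a and Hspa1b, which are nearly silent in unstressed cells, had the largest differences. Levels are given as CPM, the UMIs of a gene scaled to 1e6 UMIs of the class in that library. Hspa1a stood at 416.1 CPM in CONT and 149.6 in ABL in replicate 1, and at 307.6 and 92.8 CPM in replicate 2. Hspa1b stood at 160.3 and 40.5 CPM in replicate 1, and at 263.7 and 58.8 CPM in replicate 2. Both ABL libraries lay below both CONT libraries for each gene. The members were chosen on this contrast, so such separation, here and for the members below, is a description. The share of all genes that separate in this way was not counted. The log2 fold change (ABL against CONT, edgeR with TMM scaling and the replicate as a block) was -1.70 ± 0.32 (SE, n = 2 libraries per condition) for Hspa1a and -2.18 ± 0.28 for Hspa1b. Hspa8, the constitutive HSP70 of the cytosol and the most abundant member, had 2750.1 and 1599 CPM in replicate 1, and 2561 and 2035 CPM in replicate 2, again with no overlap between conditions, and a log2 fold change of -0.66 ± 0.46.

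Dnajb1, the HSP40 partner of inducible HSP70, stood at 287.1 CPM in CONT and 179.2 in ABL in replicate 1, and at 263.6 and 174.7 CPM in replicate 2 (log2 fold change -0.74 ± 0.30). Hsph1, an HSP110 that resets HSP70, stood at 72.9 and 45.3 CPM in replicate 1, and at 141.7 and 56.4 CPM in replicate 2 (-1.12 ± 0.25). The Dnajb1 values did not overlap between conditions, and neither did those of Hsph1. Hspb1, the small heat-shock protein HSP27, stood at 168.0 CPM in CONT and 81.4 in ABL in replicate 1, and at 80.6 and 43.3 CPM in replicate 2 (-1.08 ± 0.25), so that the CONT library of replicate 2 was no higher than the ABL library of replicate 1.

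Hsp90ab1 and the mitochondrial pair differed less, whereas Hsp90aa1 differed about as much as Dnajb1. Hsp90aa1, the stress-inducible HSP90, stood at 744.7 CPM in CONT and 450.7 in ABL in replicate 1, and at 1062 and 659.8 CPM in replicate 2, with a log2 fold change of -0.81 ± 0.39. Hsp90ab1, the constitutive HSP90, stood at 842.9 and 787.6 CPM, and at 1435 and 1286 CPM (-0.23 ± 0.41). The ABL level of Hsp90ab1 in replicate 2 was above the CONT level in replicate 1, whereas both ABL levels of Hsp90aa1 lay below both CONT levels. Hspd1 (HSP60) stood at 83.8 and 88.2 CPM in replicate 1 and at 167.2 and 113.2 CPM in replicate 2, and Hspe1 (HSP10) at 293.8 and 249.7 CPM and at 241.3 and 246.6 CPM. On these plain CPM, Hspd1 was thus higher in ABL in replicate 1 and Hspe1 in replicate 2, whereas on the TMM scale both were lower in ABL in both replicates.

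On the TMM scale, 10 of 10 members were lower in the ABL library of both replicates, beside 30.2% of the 11401 genes tested, and 0 were higher in both, beside 28.3%. The members were selected on this contrast, so nothing is read from these counts. Their median log2 fold change was -0.77, with -0.84 in replicate 1 and -0.70 in replicate 2. In cells with a UMI of a Y-linked gene and none of Xist, the fit over both replicates gave 10 of 10 lower, with a median of -0.70. In replicate 1, where ABL held 43 such cells, Hsp90ab1, Dnajb1 and Hspd1 were nevertheless higher in ABL on plain CPM. Their levels there were 809.7 and 993.3 CPM, 330 and 365.1 CPM, and 89.8 and 94.2 CPM. In replicate 2 the Hspa1a level of cells so chosen was 386.6 CPM in the control and 81.3 CPM in the ablated femurs.

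**Figure D1:**
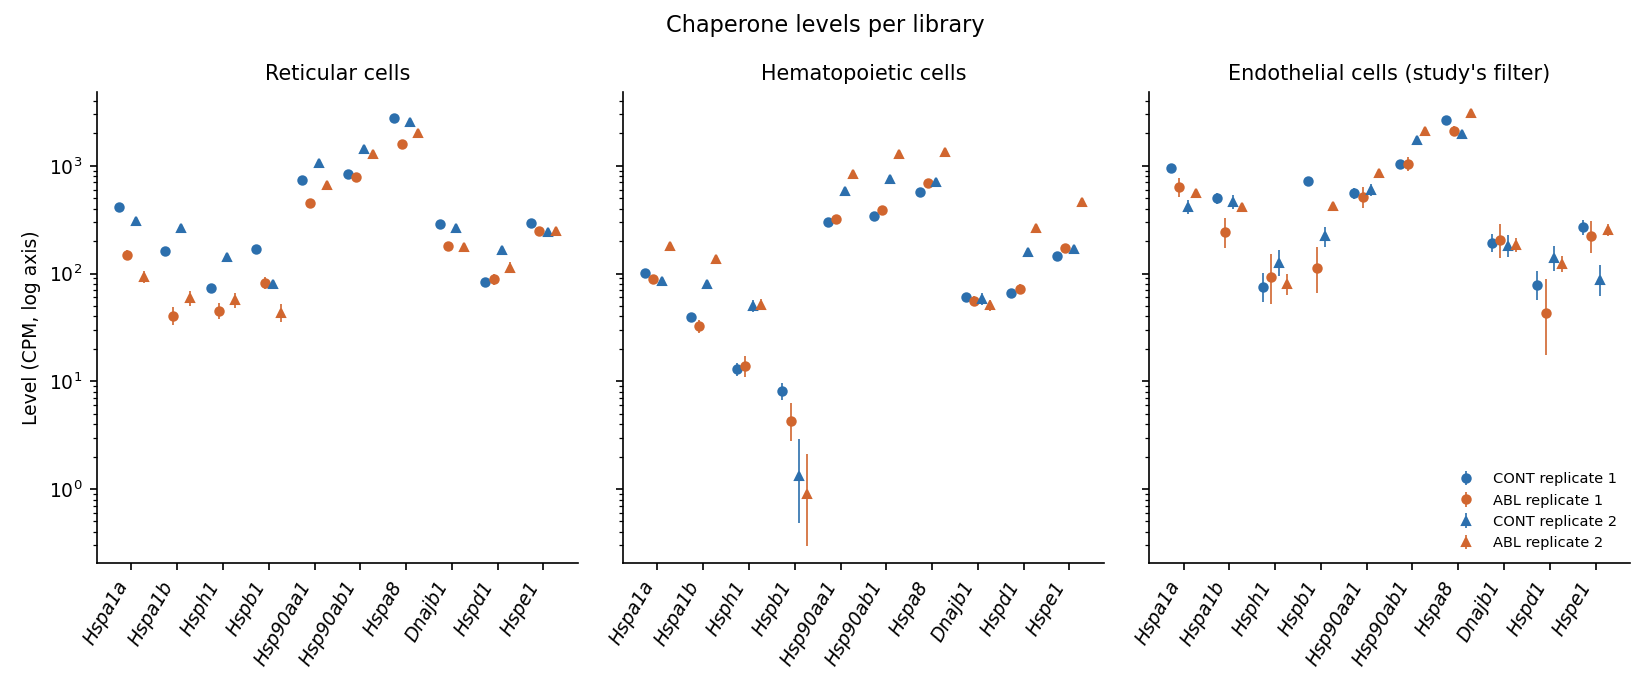
Level of each of the 10 chaperones (CPM, log axis) in reticular cells, hematopoietic cells and endothelial cells (the study's cell filter), with 1 point per library (blue CONT, orange ABL; circles replicate 1, triangles replicate 2) and 95% exact Poisson intervals. Hspa1b in reticular cells sits at 160.3 and 263.7 CPM in CONT and at 40.5 and 58.8 in ABL, while in hematopoietic cells the highest point is the ABL library of replicate 2, at 137.6.

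Reticular subclusters with at least 20 cells in each library of a replicate were compared, which left out 21 and 11 cells of CONT and ABL in replicate 1, and 155 and 19 in replicate 2. In replicate 1, 5 of 5 such subclusters had a lower summed Hspa1a and Hspa1b level in ABL, by 1.25- to 5.13-fold, and in replicate 2, 5 of 5 did, by 1.94- to 7.00-fold. The chaperones were not used in the clustering. The members were, however, chosen on this contrast in these same cells, so nothing is read from these counts. A subcluster too small in ABL for this comparison, which held 79 control and 12 ablated cells of replicate 2 (4.05% and 3.69% of the reticular cells), had 13250 CPM of all 10 members in its control cells. Without it, Hspa1a stood at 291.4 CPM in the control and 82.4 CPM in the ablated femurs of that replicate, and Hspa1b at 255.5 and 53.6 CPM.

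Most reticular cells held no UMI of the inducible HSP70 genes. After thinning every cell to 2000 UMIs, 66.5% of reticular cells of control and 84.7% of ablated femurs in replicate 1 held no UMI of Hspa1a or Hspa1b, and 77.0% and 89.8% in replicate 2. The 10% of cells with the most such UMIs held 70.1% of them in control and 86.9% in ablated femurs of replicate 1, and 81.8% and 99.05% in replicate 2. Cells with 10 or more of these UMIs made up 3.45% of reticular cells in CONT and 0.763% in ABL in replicate 1, and 3.39% and 0.615% in replicate 2. For Hspa1a alone, 27.0% (95% exact binomial interval 24.4 to 29.6) and 12.5% (9.37 to 16.1) of thinned reticular cells held a UMI in replicate 1, beside 7.08% and 3.46% of neutrophil-lineage cells. In replicate 2 the shares were 17.5% (15.8 to 19.3) and 8.0% (5.29 to 11.5), beside 0.746% and 1.32% of neutrophil-lineage cells. Without thinning, 37.4%, 22.6%, 30.8% and 15.1% of reticular cells held one, at median depths of 4508, 6643, 12750 and 7469 UMIs, against 6020, 6061, 10810 and 9438 UMIs in neutrophil-lineage cells. These intervals, like the Poisson intervals of levels, cover counting error only. The level that free RNA of the droplets would give was 6.88% of the Hspa1a level of reticular cells in CONT and 13.8% in ABL in replicate 1, and 1.40% and 3.51% in replicate 2, so a UMI in a cell is not by itself expression.

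**Figure D2:**
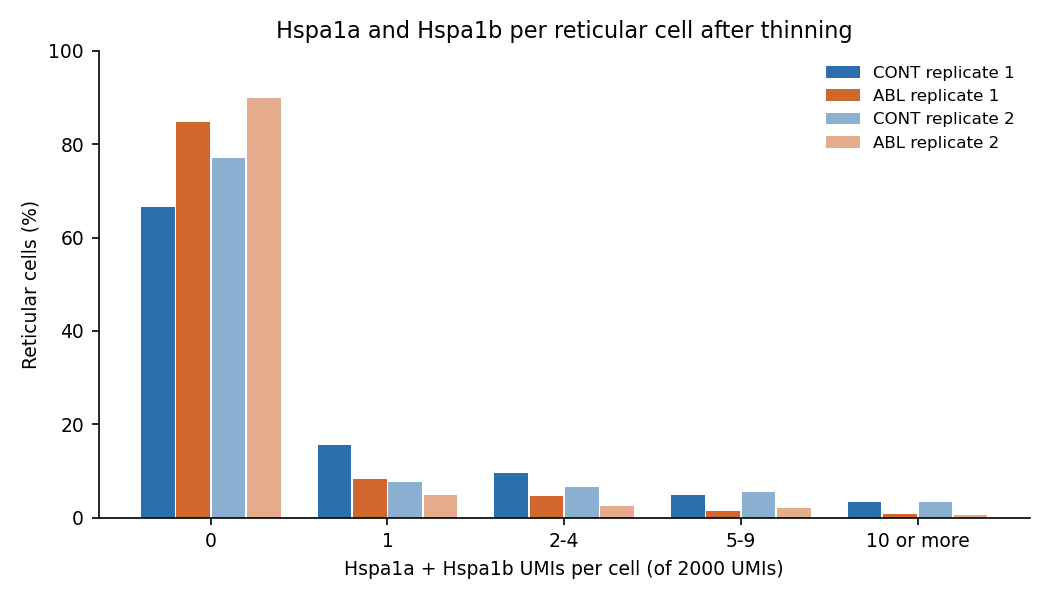
Share of reticular cells (%) by the number of Hspa1a and Hspa1b UMIs per cell after thinning to 2000 UMIs, for the 4 libraries (blue CONT, orange ABL; solid replicate 1, pale replicate 2). Cells with no such UMI made up 66.5% and 77.0% in CONT, and 84.7% and 89.8% in ABL.

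In hematopoietic cells, which had no part in choosing the members, 0 of 10 chaperones were lower and 0 were higher in ABL (edgeR quasi-likelihood test, Benjamini-Hochberg adjusted p of 0.05), beside 0.172% of 11057 genes called lower and 3.01% called higher. No member passed an unadjusted p of 0.05 (0 of 10), beside 6.3% of genes lower and 8.05% higher. None passed the threshold in DESeq2 either (0 of 10), where the share of all genes called was not counted. The median log2 fold change of the members was 0.19, with -0.08 in replicate 1 and 0.55 in replicate 2. Hsph1, Hspb1 and Dnajb1 were lower in ABL in both replicates (3 of 10, beside 33.4% of all genes), although Hsph1 was higher without TMM, and Hsp90ab1, Hspa8 and Hspe1 were higher in both (3 of 10, beside 29.5%). The smallest adjusted p was 0.436, for Hspb1. Whether the difference between conditions itself differed between reticular and hematopoietic cells was not tested, because the members were chosen for one side of it. In cells with a Y-linked UMI and none of Xist the median was -0.05, with 6 of 10 members lower and 0 called. The share of all genes called in those cells was not counted.

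Hspa1a stood at 100.6 CPM in CONT and 89.7 in ABL in the hematopoietic cells of replicate 1, and at 84.5 and 182.1 CPM in replicate 2. Hspa1b stood at 39.8 and 32.3 CPM, and at 79.4 and 137.6 CPM. The log2 fold changes were 0.29 ± 0.38 and 0.07 ± 0.36, so the replicates went opposite ways and the spread exceeded the difference. Hspa8 stood at 575.6 and 697.9 CPM, and at 712.7 and 1329.9 CPM (0.41 ± 0.38), and Hsp90ab1 stood at 341.7 and 387.4 CPM, and at 750.6 and 1276 CPM (0.29 ± 0.38). Hspe1 had the largest positive value, 0.67 ± 0.39, from 146.0 and 174.1 CPM in replicate 1 and 168.5 and 462.9 CPM in replicate 2. Both ABL libraries lay above the CONT library of their replicate for these 3 genes, none of which passed the test. The other members had log2 fold changes between -0.35 (Dnajb1) and 0.25 (Hspd1), apart from Hspb1 at -0.99 ± 0.55.

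Hspb1 was hardly present in hematopoietic cells, at 8.15 CPM in CONT and 4.26 in ABL in replicate 1, and at 1.33 and 0.903 CPM in replicate 2. The level that free RNA of the droplets would give, taken from empty droplets and reticular markers, was 89.8% to 291% of these values. For the other 9 members the free-RNA part was at most 38.9% (Hsph1) and at most 21.9% of Hspa1a. Free RNA also differed between the conditions, with 336.8 and 253.8 CPM of Hspa1a in empty droplets of replicate 1 and 462.1 and 127.1 CPM in replicate 2. With free RNA subtracted, 1 of the 9 members tested was lower in ABL and 8 were higher, against 3 and 7 of 10 before. After subtraction 0 of 9 passed the threshold, and before it 0 of 10 had, so these calls do not show the part of free RNA.

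The lineages behind these sums were not in the same proportions. Neutrophil-lineage cells made up 55.2% of hematopoietic cells in CONT and 43.0% in ABL in replicate 1, and 48.4% and 32.6% in replicate 2, while monocytes and macrophages made up 10.5% and 22.9%, and 6.50% and 43.3%. Their levels differ, with 83.4 CPM of Hspa1a and Hspa1b together in neutrophil-lineage cells and 574.3 CPM in monocytes and macrophages of CONT replicate 1. The part of lineage make-up in the sums was not tested, and each lineage with at least 10 cells in every library is therefore given by itself.

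In neutrophil-lineage cells (961, 289, 134 and 152 cells) the summed Hspa1a and Hspa1b level was 83.4 CPM in CONT and 66.7 in ABL in replicate 1, and 24.9 and 59.1 CPM in replicate 2. The higher ABL level of replicate 2 lay in few cells. Without thinning, 3.73% of its CONT and 1.97% of its ABL cells held a Hspa1a UMI, and 8.96% and 4.61% a Hspa1b UMI. No member passed the test (0 of 9 that passed the low-count filter), beside 0.142% of 7750 genes called lower and 0.194% called higher, and 0 passed an unadjusted p of 0.05, beside 2.06% and 1.23%. One member each was lower (Hsph1) and higher (Hspd1) in both replicates, beside 23% and 21.7% of genes. In monocytes and macrophages (182, 154, 18 and 202 cells) the level was 574.3 and 297.0 CPM in replicate 1, a 1.93-fold lower value in ABL, but 690.6 and 688.1 CPM in replicate 2. None of 9 members passed there either (0 calls), beside 2.61% of 8015 genes called lower and 2.65% called higher, nor an unadjusted p of 0.05, beside 7.35% and 8.26%. Hspd1 and Hspe1 were higher in ABL in both replicates of this lineage (29.9% of genes were) and Hsph1 lower (30.5% were), with log2 fold changes of 0.15 ± 0.32 for Hspd1 and 0.53 ± 0.35 for Hspe1.

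Erythroid cells (438, 145, 58 and 43 cells) had Hspa1a and Hspa1b lower in ABL in both replicates, alone among lineages with at least 10 cells in every library. T and NK cells, with 4 cells in CONT of replicate 2, also had lower CPM of both genes in ABL in both replicates. The summed level of erythroid cells was 126.9 CPM in CONT and 48.6 in ABL in replicate 1, and 219.6 and 80.3 CPM in replicate 2, 2.61- and 2.74-fold lower in ABL. The levels of replicate 2 lay in few cells. Without thinning, 15.5% of its CONT and 9.30% of its ABL cells held a Hspa1a UMI, and 22.4% and 11.6% a Hspa1b UMI. After thinning, the Hspa1a share of that replicate was 3.45% in CONT and 6.98% in ABL, the other way. The log2 fold changes were -1.31 ± 0.51 for Hspa1a and -1.66 ± 0.51 for Hspa1b, with unadjusted p-values of 0.0107 and 0.00112 and adjusted p-values of 0.696 and 0.274 in edgeR, so neither passed the threshold. In this lineage 0.0142% of 7049 genes were called lower and 0.199% higher, and 2.38% and 2.17% passed an unadjusted p of 0.05. Of the 9 members tested, 3 were lower in both replicates (Dnajb1 was the other one), beside 26.3% of genes, and 3 were higher, beside 24%. After TMM scaling Hspe1, Hspa8 and Hsph1 were higher in ABL in both replicates, by 0.95 ± 0.58, 0.53 ± 0.59 and 0.17 ± 0.50 on the log2 scale, whereas on plain CPM 10 of 10 members were lower in ABL in replicate 1 (median log2 ratio -0.36) and 4 of 10 in replicate 2 (median 0.81). Erythroid markers, mostly globins, held 53.6% of UMIs in CONT and 61.5% in ABL in replicate 1, but 36.9% and 18.2% in replicate 2, and their part in the result was not tested.

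In B-lineage cells (142, 68, 63 and 22 cells) the inducible HSP70 genes were higher in ABL, without passing the test. The summed Hspa1a and Hspa1b level was 104.4 CPM in CONT and 214.1 in ABL in replicate 1, and 232.6 and 361.2 CPM in replicate 2, and both genes were higher in ABL in both replicates. In replicate 2 the ABL level of each gene lay in 1 of the 22 cells. In replicate 1 the shares of cells with a Hspa1a UMI, without thinning, were 19.0% in CONT and 19.1% in ABL. Of the 9 members that passed the low-count filter, 8 were higher in both replicates, beside 22.7% of 5766 genes, Dnajb1 was the exception, and 0 were lower, beside 27.5%. The median log2 fold change was 0.72, with 0.42 in replicate 1 and 0.99 in replicate 2. None passed the test (0 of 9, with adjusted p-values of 0.999 throughout), and Hspa1b alone had an unadjusted p under 0.05, at 0.038 (edgeR). Of all genes, 0.052% were called lower and 0.121% higher, and 2.83% and 1.39% passed an unadjusted p of 0.05. Neutrophil markers, which B cells lack, stood at 21980 CPM in these cells in CONT and 5338 in ABL in replicate 1, and at 13120 and 87.6 CPM in replicate 2, and their part in the result was not tested.

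**Figure D3:**
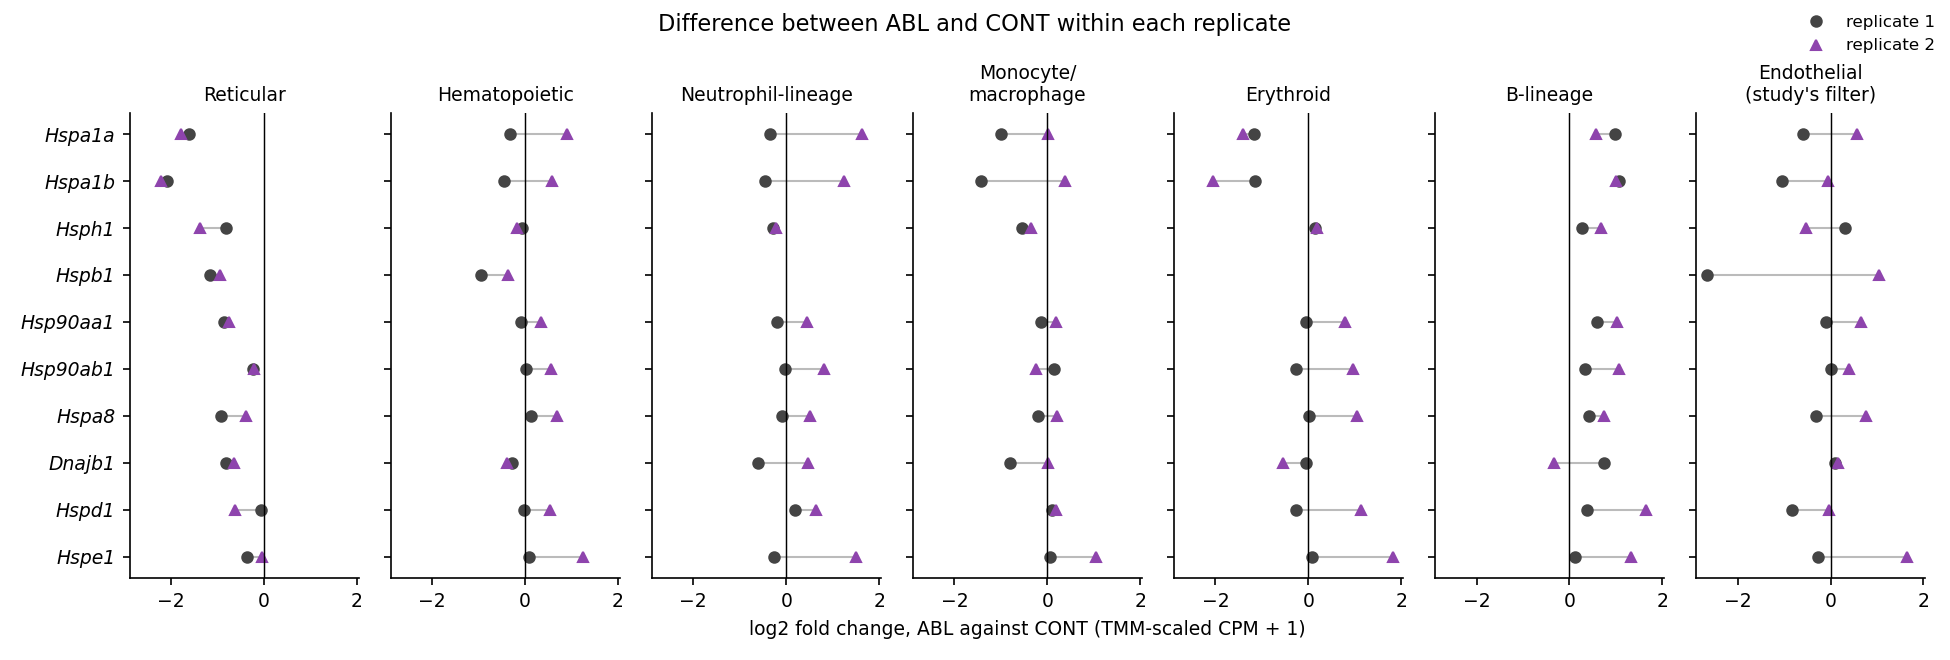
log2 fold change (ABL against CONT) of each member within replicate 1 (circles) and replicate 2 (triangles), by cell class, on TMM-scaled CPM with 1 added. All points of reticular cells lie left of 0, while in the other classes points lie on both sides. In B-lineage cells the point of Dnajb1 in replicate 2 alone lies left of 0.

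Endothelial cells had the highest summed level of the inducible HSP70 genes among classes with at least 20 cells in a library, in the 3 libraries in which they were found. Mural cells, left out by that limit with 12 cells in CONT of replicate 1, stood at 1437 CPM there. With the main cell filter endothelial cells formed a cluster in 3 libraries, with 88 cells in CONT of replicate 1, 25 in CONT of replicate 2 and 116 in ABL of replicate 2, but none in ABL of replicate 1. The summed Hspa1a and Hspa1b level was 1436 CPM in CONT of replicate 1, and 887.9 CPM in CONT and 975.1 CPM in ABL of replicate 2, where their Poisson intervals overlapped. In replicate 2, 3 of 10 members were lower in ABL on plain CPM, with a median log2 ratio of 0.34 over the 10.

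With only the minimum of genes and maximum of mitochondrial UMIs that the study set, a choice made after the data were seen, endothelial clusters were found in all 4 libraries, with 146, 77, 26 and 134 cells. Hspa1a stood at 954.4 CPM in CONT and 632.7 in ABL in replicate 1, and at 415.7 and 564.3 CPM in replicate 2. Hspa1b stood at 500.4 and 241.9 CPM, and at 464.3 and 411.3 CPM. Hspb1, which endothelial cells express, stood at 716.7 and 111.7 CPM, and at 221.2 and 419.9 CPM. Hspa1a and Hspb1 were thus lower in ABL in replicate 1 and higher in replicate 2, and Hspa1b was lower in both. Of the 10 members, 0 passed the test in either direction, and 0% of the 6275 genes tested were called lower or higher, so this fit called no gene at all, with 1.98% lower and 2.1% higher at an unadjusted p of 0.05, where no member passed (0 of 10). The median log2 fold change was 0.06, with -0.29 in replicate 1 and 0.48 in replicate 2, and Hspa1b and Hspd1 were lower in both replicates (2 of 10, beside 27.3% of genes), while Hsp90ab1 and Dnajb1 were higher in both, beside 25.6%.

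The endothelial cells also differed in make-up between libraries. Neutrophil markers stood at 29270 CPM in CONT and 10920 in ABL in replicate 1, and at 143.4 and 9016 CPM in replicate 2, and erythroid markers at 29380 and 9193 CPM, and at 1181 and 96.6 CPM. The 77 cells of ABL replicate 1 held 2094 UMIs each on average, their 8 endothelial markers summed to 2574 CPM against 5456 to 7507 CPM in the other libraries, and Cxcl12 stood at 5211 CPM against 263.0 to 1925 CPM. The part of this make-up in the results was not tested. Cells gated by at least 3 endothelial markers and no Ptprc UMI numbered 135, 17, 27 and 138, and in them Hspa1a stood at 825.1 and 358.2 CPM in replicate 1 and at 408.2 and 510 CPM in replicate 2. Hspa1b was the member lowest in ABL with this gate (log2 fold change -0.90 ± 0.49) and Hspe1 the highest (1.23 ± 0.44), with adjusted p-values of 0.456 and 0.305 in edgeR, beside 0.0155% of 6439 genes called lower and 0.202% called higher. Hspe1 was the 1 member with an unadjusted p under 0.05 (0.0191, edgeR), beside 5.98% of genes lower and 6.91% higher, and 2 members were lower and 3 higher in both replicates, beside 30.3% and 32%. The gated cells of ABL replicate 1 held 2650 CPM of mural markers against 21.0 to 124.5 CPM elsewhere.

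Among the other stromal classes, the summed Hspa1a and Hspa1b level of periosteal and fibroblast cells was 444.1 CPM in CONT and 250.1 in ABL in replicate 1 (64 and 97 cells), and 653.5 and 110.7 CPM in replicate 2 (22 and 1162 cells). Pre-osteoblasts, found in replicate 1, had 500.5 and 402.0 CPM (43 and 91 cells), and mural cells 1437 and 357.8 CPM (12 and 22 cells). T and NK cells had 896.6 and 782 CPM in replicate 1 (19 and 16 cells). Classes with at least 10 cells in both libraries were counted, including reticular cells, on which the members were chosen. The level was lower in ABL in 8 of 9 classes in replicate 1, B-lineage cells being the exception. In replicate 2 it was lower in 4 of 7, among them monocytes and macrophages, which differed by 1.00-fold. Neutrophil-lineage, B-lineage and endothelial cells were higher there. No such count was made over all genes, so these counts are a description. The neutrophil-lineage and B-lineage levels in ABL of replicate 2 lay in few cells.

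**Figure D4:**
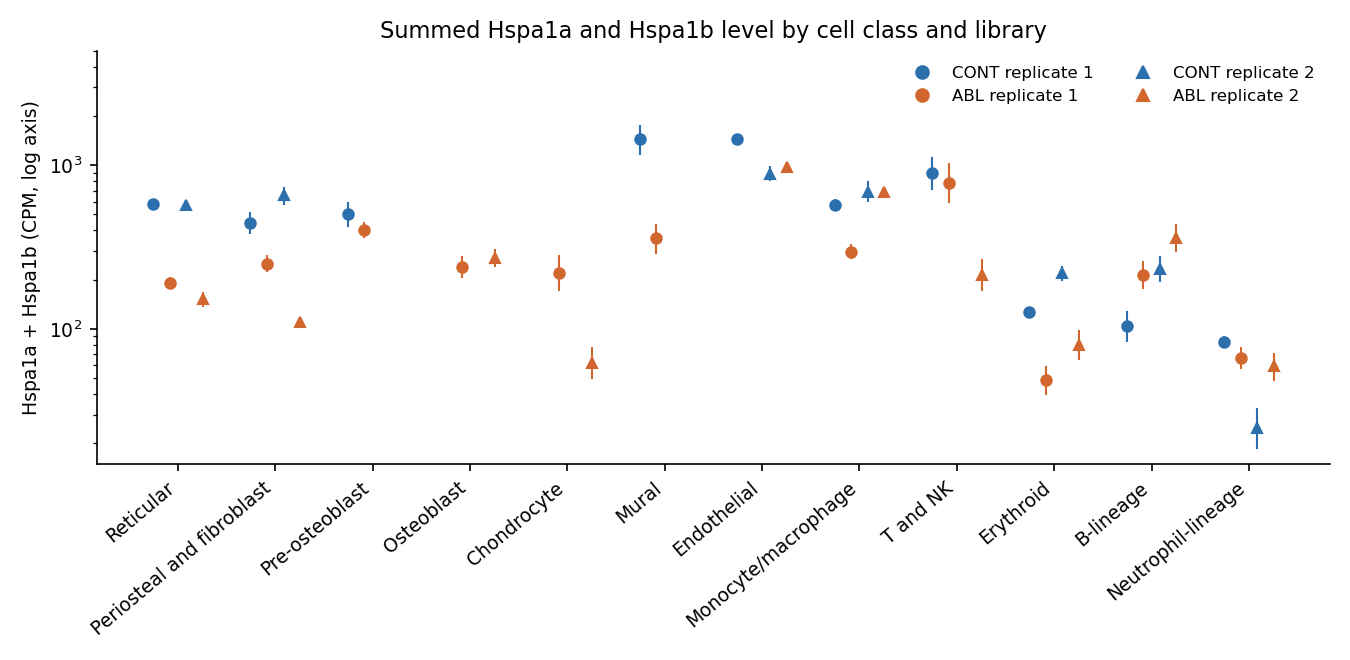
Summed Hspa1a and Hspa1b level (CPM, log axis) by cell class, with 1 point per library that held at least 10 cells of the class and 95% exact Poisson intervals (blue CONT, orange ABL; circles replicate 1, triangles replicate 2). Reticular cells sit at 576.5 and 571.3 CPM in CONT and at 190.1 and 151.5 in ABL. Erythroid cells are lower in ABL in both replicates, and B-lineage cells are higher in both. The B-lineage level in ABL of replicate 2 lies in 1 cell for each gene.

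Other chaperones of reticular cells were examined by lists. Of 25 genes of the HSF1 axis and its cytosolic co-chaperones, 24 passed the low-count filter, 0 were called lower and 1 higher, beside 2.06% of all genes called lower and 2.3% called higher. At an unadjusted p of 0.05, 2 were lower and 1 higher, beside 7.36% and 6.65% of all genes. The one was Cryab, a small heat-shock protein named here after its values were seen, at 2.05 and 7.84 CPM in replicate 1 and 1.24 and 8.12 CPM in replicate 2 (log2 fold change 2.25 ± 0.54, edgeR adjusted p = 0.00142), a call lost without the replicate block (adjusted p = 1) and in DESeq2 (adjusted p = 0.157). The list's median log2 fold change was -0.07, although its medians within replicates were 0.10 and 0.03, beside -0.01 over all genes, and 7 genes (29.2%) were lower in both replicates, beside 30.2% of all genes. None of the 7 CCT chaperonin genes found, which fold actin and tubulin, was called (0 of 7). Of these, 5 were higher in both replicates, beside 28.3% of all genes, with a list median of 0.31. In the mitochondrial list (7 genes) and the list of the endoplasmic reticulum (13 genes) 0 were called, with medians of 0.21 and -0.06. In hematopoietic cells 0 genes of these 4 lists were called, with medians of 0.05, 0.20, 0.28 and 0.31 in the same order, beside -0.05 over all genes.

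Immediate-early genes are induced within minutes by signals and by tissue dissociation. In reticular cells their summed level was 19061 CPM in CONT and 13824 in ABL in replicate 1, and 21092 and 14305 CPM in replicate 2. Of the 19 genes, 16 were lower in ABL in both replicates (84.2%, beside 30.2% of all genes). The list's median log2 fold change was -0.58, and the other 3 (Klf2, Klf4 and Mcl1) were higher in ABL in replicate 2. The list was chosen with earlier results of these data known, so these counts are a description. Of the 19, 1 was called lower. This was Atf3, a stress-induced transcription factor, at 213.5 and 82.4 CPM in replicate 1 and 291.0 and 96.2 CPM in replicate 2 (-1.59 ± 0.29, edgeR adjusted p = 6.54e-06). The adjusted p was 2.23e-06 in DESeq2, which used the same replicate block, but 1 without that block in edgeR. The call thus depends on the block, in which replicate and chemistry cannot be told apart, and the cause was not tested. In hematopoietic cells the summed level was 2230 and 2488 CPM in replicate 1 and 3784 and 3353 CPM in replicate 2. There 7 of 19 genes were lower in both replicates, beside 33.4% of all genes, with 0 called and a median of -0.16. In endothelial cells it was 16111 CPM in CONT of replicate 1, while in replicate 2 the control had 15458 CPM and the ablated femurs 18940 CPM. The part of dissociation in the chaperone levels was not tested.

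**Figure D5:**
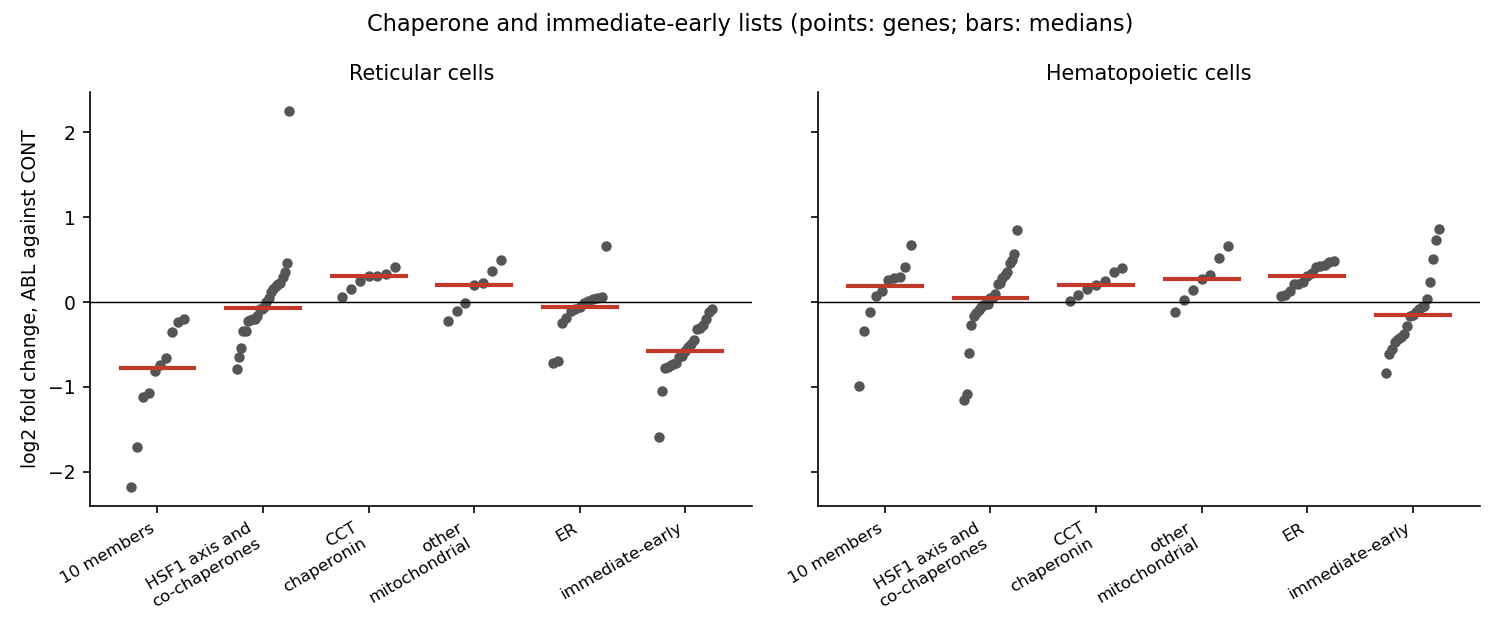
log2 fold change (ABL against CONT, edgeR) of each gene of 6 lists in reticular cells (left) and hematopoietic cells (right), with 1 point per gene and a red bar at each list's median. In reticular cells the medians are -0.77 for the 10 members, which were chosen for it, and -0.58 for the immediate-early genes. In hematopoietic cells they are 0.19 and -0.16. All the lists were chosen with earlier results of these data known.

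Over the 33 sums of a cell class in a library with at least 20 cells, the 5 genes whose log2 level followed that of Hspa1a and Hspa1b most closely were Tmcc3, Lpar6, Zscan26, Smagp and Sepp1, with Pearson correlations of 0.80 for Tmcc3 to 0.79 for Sepp1 among 6021 genes. These sums share libraries and depth, and the correlations are a description. Hspa8 came 47th at 0.74 and Hsph1 370th at 0.63, while Hspd1 had a correlation of 0.14.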

How the data were processed

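The authors deposited UMI counts per barcode made with Cell Ranger on mm10 with transgenes, all barcodes included; per the labels Seurat was used downstream, and versions are not given in the sources used here. Cells passed the study's limits (500 genes or more and no more than 20% mitochondrial UMIs in v2, 1000 and 15% in v3) and a depth floor per library, 1/10 of percentile 99 of the UMI totals of its 3000 deepest barcodes. They were clustered per replicate after CCA integration, without the chaperones, in Seurat 5.3.0 and named from marker lists. No doublet caller was run. Raw counts were summed per library and class and tested in edgeR 4.0.16 (R 4.3.3; quasi-likelihood, TMM, filterByExpr, replicate as block, 1 residual degree of freedom, Benjamini-Hochberg adjustment over all genes, threshold 0.05), with DESeq2 1.42.0 as an alternative, after a test on simulated data. An exact permutation test over these libraries cannot go below p = 0.333, or below p = 0.5 if the 2 pairs are kept as in the blocked fits. The members, marker and gene lists were chosen with earlier results of these data known. Named genes are the members, up to 4 genes per list past the threshold with a mean of at least 20 CPM, and the 5 genes most like Hspa1a and Hspa1b; of 72 list genes 71 were found. The same number marks both femurs of the same mice in the study's design; deviations within replicates correlated at 0.729 in reticular and 0.59 in hematopoietic sums, which includes the shared chemistry.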

Additional observations from a re-analysis of the deposited data

Results flagged for a closer look

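Values are listed here because a member was higher in ABL than in CONT in both replicates of a cell class, while it was lower in both in reticular cells. Both directions are taken after TMM scaling. For Hspd1 and Hspe1 the reticular direction did not hold on plain CPM. Reticular Hspd1 stood at 83.8 CPM in CONT and 88.2 in ABL in replicate 1, and Hspe1 at 241.3 and 246.6 CPM in replicate 2. The difference between classes was not tested, the reticular side chose the members, and none of these log2 fold changes passed the edgeR threshold. In hematopoietic cells they were 0.29 for Hsp90ab1, 0.41 for Hspa8 and 0.67 for Hspe1. In neutrophil-lineage cells the value was 0.43 for Hspd1, and in monocytes and macrophages 0.15 for Hspd1 and 0.53 for Hspe1. In erythroid cells the values were 0.17 for Hsph1, 0.53 for Hspa8 and 0.95 for Hspe1, a direction that holds after TMM scaling but not on plain CPM, where 10 of 10 members were lower in ABL in replicate 1.

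B-lineage cells had the most such members, with a median of 0.72 over the 9 tested. The values were 0.78 for Hspa1a, 1.04 for Hspa1b, 0.51 for Hsph1, 0.82 for Hsp90aa1, 0.71 for Hsp90ab1, 0.58 for Hspa8, 1.02 for Hspd1 and 0.72 for Hspe1. In replicate 2 those of Hspa1a and Hspa1b rest on 1 ABL cell for each gene. In endothelial cells of the study's filter the values were 0.20 for Hsp90ab1 and 0.13 for Dnajb1, and with the marker gate 0.35 for Hsp90aa1, 0.36 for Hsp90ab1 and 1.23 for Hspe1.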

How the results depend on the processing

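The count of hematopoietic members past the threshold was 0 in each direction under every tested alternative that kept 2 libraries per condition. The lowest adjusted p-values there ran from 0.266 to 0.999 (edgeR). The share of all genes called was not counted under these alternatives, so nothing is read from these zeros. The median log2 fold change of the hematopoietic members, 0.19, was 0.26 without the replicate block and 0.37 without TMM. It ranged from -0.34 without ABL replicate 2 to 0.67 without ABL replicate 1, and in these 2 fits the lone library is assumed to vary like the others. The hematopoietic median thus changed direction without ABL replicate 2, where 8 of 10 members were lower. It was also negative in cells with a Y-linked UMI and none of Xist, where that library was kept and 6 of 10 were lower. The reticular median, -0.77, was -0.77 without the replicate block and -0.67 without TMM, and ranged from -0.84 without replicate 2 to -0.60 without ABL replicate 1. Of 10 members, 9 were lower there without ABL replicate 1 (Hsp90ab1 was 0.12) and 8 without CONT replicate 2 (Hsp90ab1 was 0.21 and Hspd1 0.17). Among the other chaperone and immediate-early genes of reticular cells, 1 called lower (Atf3) and 1 higher (Cryab) became 0 and 0 without the replicate block, and 2 and 0 in DESeq2; the cause was not tested. The numbers pair femurs by the study's design, but the 2 pairs and their chemistry cannot be told apart. No hematopoietic member was called with or without the block, so these counts do not show what the block changed. With 2 libraries per condition and as few as 17 cells of a class in a library, differences of the size seen in reticular cells may be missed there.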
